A study of Mus musculus with 2 samples.

Results

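The genes described here are 79 intergenic noncoding genes that were well measured in mouse gastrocnemius, a calf muscle made mostly of fast fibres. Members were selected on their measured counts and on annotation. Every annotated transcript of a member is of the class lincRNA (long intergenic noncoding RNA), and each member had an expected count, an estimated number of reads, of 50 or more in both libraries. The nuclear and imprinted noncoding genes Malat1, Neat1, Tug1, Miat, 2310065F04Rik, H19, Meg3, Rian, Mirg and Peg13, the gene Gm42418, and genes whose symbols start with Snhg or Gas5 were set aside by name. Of 55536 annotated genes, 5844 were of this class, 86 of those reached the count limit, 7 of the 86 were set aside, and 79 remained. Since counts chose the members, their levels are given as a description, without a test.

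Total RNA came from 2 adult male B6CASTF1/J mice, hybrids of the B6 and CAST strains, aged 8 to 10 months, with 1 library per animal (replicate 1 and replicate 2). For each, 300 ng of RNA entered a directional kit after reduction of ribosomal RNA, and ERCC spike-in RNAs were added. There was 1 group and no treatment, so the comparisons are between genes, between the 2 animals and between the 2 quantifications deposited for each library. The labels number the libraries as separate biological replicates from differently numbered animals and give both the same donor identifier. Gene counts summed to 36792619 in replicate 1 and 37752252 in replicate 2. The tissue label was checked on markers: 6 fast-fibre genes summed to 71536 and 76053 TPM (a level corrected for transcript length and library size), while 2 skin genes were at 0 counts in both libraries. The 6 slow-fibre genes summed to 1358 and 890 TPM and were all lower in replicate 2, with log2 ratios from -0.77 to -0.51. Gm42418, a ribosomal-RNA-like gene set aside by name, stood at 735980 counts in replicate 1 and 62919 in replicate 2.

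Long intergenic noncoding RNAs are spliced or unspliced transcripts, usually made by the same polymerase as messenger RNAs, from loci that lie largely apart from coding genes. Some act as RNA: they bind proteins, pair with microRNAs or serve as parts of enzymes. Others mark the transcription of a neighbouring promoter, host small RNAs, or turn out to code for small proteins. Most members carry only a provisional symbol, since 41 are named Gm or AC with a number and 27 carry a Rik name.

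A few sequences show what the best-known members are made of. The first is the pairing between 1700020I14Rik, the RNA known as Cyrano (RefSeq symbol Oip5os1), and the microRNA miR-7a. Cyrano is known for an extensive match to miR-7 that leads to destruction of the microRNA. The mature miR-7a sequence is from RefSeq (GRCm38.p6), with its seed, bases 2 to 8, in capitals. Below it are both places in the 8300-base Cyrano transcript that hold the complement of the seed, at bases 762 and 2952, with every base complementary to miR-7a in capitals and the base opposite microRNA position 1 last.
mmu-miR-7a-5p: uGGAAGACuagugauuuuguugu
Cyrano, base 762: ttcaggttttttttttaatGTCTTCCA
Cyrano, base 2952: gaACAACAAAATCACcaatGTCTTCCA
Both sites pair with 8 bases on the seed side. The second, at chr2:119602135-119602161 on the plus strand (mm10), pairs with 13 more bases after 4 unpaired ones, and the first, at chr2:119599945-119599971, has no such second run.

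The second sequence is from 2900097C17Rik, the RNA known as Norad, which binds Pumilio proteins and is known for its part in keeping the genome stable. Pumilio proteins bind the element TGTANATA, where N is any base, searched here on the transcript strand only. The closest pair of elements, with 1 base between them, lies in a stretch of 120 bases at chr2:156390471-156390590 on the minus strand (mm10), and both are shown in capitals.
Norad: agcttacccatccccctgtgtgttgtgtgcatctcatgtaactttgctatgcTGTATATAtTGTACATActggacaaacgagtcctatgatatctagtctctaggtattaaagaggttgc
The 4915-base transcript held 11 such elements. Of 42587 annotated transcripts of 2000 or more bases, 30.8% held at least 1 and 0.0188% held as many as Norad. Gm7292, an unspliced gene on chromosome 6, resembles a second copy of the first part of Norad: 2525 aligned bases differed at 9, an identity of 99.64%, with 4 gaps. It held 9 elements in 2527 bases. The 90 aligned bases with the most differences hold 2 of the 9 differing bases. They are shown as an example of how little there is for reads to tell both genes apart there. The differing bases are in capitals.
2900097C17Rik: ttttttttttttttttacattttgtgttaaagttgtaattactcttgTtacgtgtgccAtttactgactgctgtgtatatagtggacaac
Gm7292: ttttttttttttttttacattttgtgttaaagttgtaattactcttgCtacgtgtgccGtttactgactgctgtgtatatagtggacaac

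**Figure D1:**
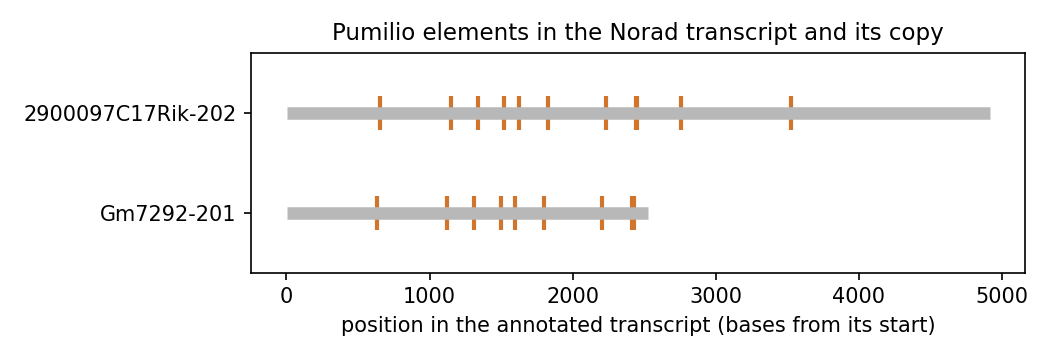
Positions of the Pumilio elements (vertical marks) along the annotated transcripts of 2900097C17Rik (4915 bases) and Gm7292 (2527 bases), in bases from the transcript start. The 9 elements of Gm7292 sit at nearly the same positions as the first 9 of the 11 in 2900097C17Rik.

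The third sequence is that of Rmrp, the RNA subunit of RNase MRP, an enzyme that takes part in the maturation of ribosomal RNA. The lincRNA-class entry has 281 bases, at chr4:43492783-43493063 on the minus strand (mm10). It contains the whole 271-base ribozyme-class entry of the same name, and the 5 bases before and 5 bases after that entry are in capitals.
Rmrp: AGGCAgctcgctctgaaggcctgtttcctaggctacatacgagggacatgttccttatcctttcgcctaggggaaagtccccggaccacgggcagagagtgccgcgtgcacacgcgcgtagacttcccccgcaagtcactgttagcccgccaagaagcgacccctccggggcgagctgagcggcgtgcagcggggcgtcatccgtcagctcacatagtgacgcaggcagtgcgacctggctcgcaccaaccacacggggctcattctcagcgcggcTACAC

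The last set is the microRNAs inside 6720427I07Rik on chromosome 13, whose exons contain the let-7a-1, let-7f-1 and let-7d hairpins on its own strand. The let-7 family represses many growth-related messenger RNAs. Their 5p mature forms (RefSeq, GRCm38.p6) share 1 seed, GAGGUAG, in capitals.
mmu-let-7a-5p: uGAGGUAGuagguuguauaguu
mmu-let-7f-5p: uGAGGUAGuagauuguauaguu
mmu-let-7d-5p: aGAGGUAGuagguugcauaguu

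Levels ran from 0.19 to 5071 TPM and were concentrated in few genes. Of the 79 members, 4 averaged 100 TPM or more, 10 averaged 10 to 100 TPM, 58 averaged 1 to 10 TPM and 7 averaged under 1 TPM. The median member stood at 3.75 TPM in replicate 1 and 3.47 TPM in replicate 2. All members held 408913 counts in replicate 1 and 372785 in replicate 2, which was 1.11% and 0.988% of the counts of all genes. Without Gm26917 they held 68251 and 69442 counts, or 0.186% and 0.184%. Cyrano and Norad alone made up 70.0% and 67.8% of what remained. The SD over the 2 animals was 9.71% of the mean for the median member and 52.1% for the most variable one. In this bulk tissue, fewer cells of a type and less RNA per cell cannot be told apart.

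**Figure D2:**
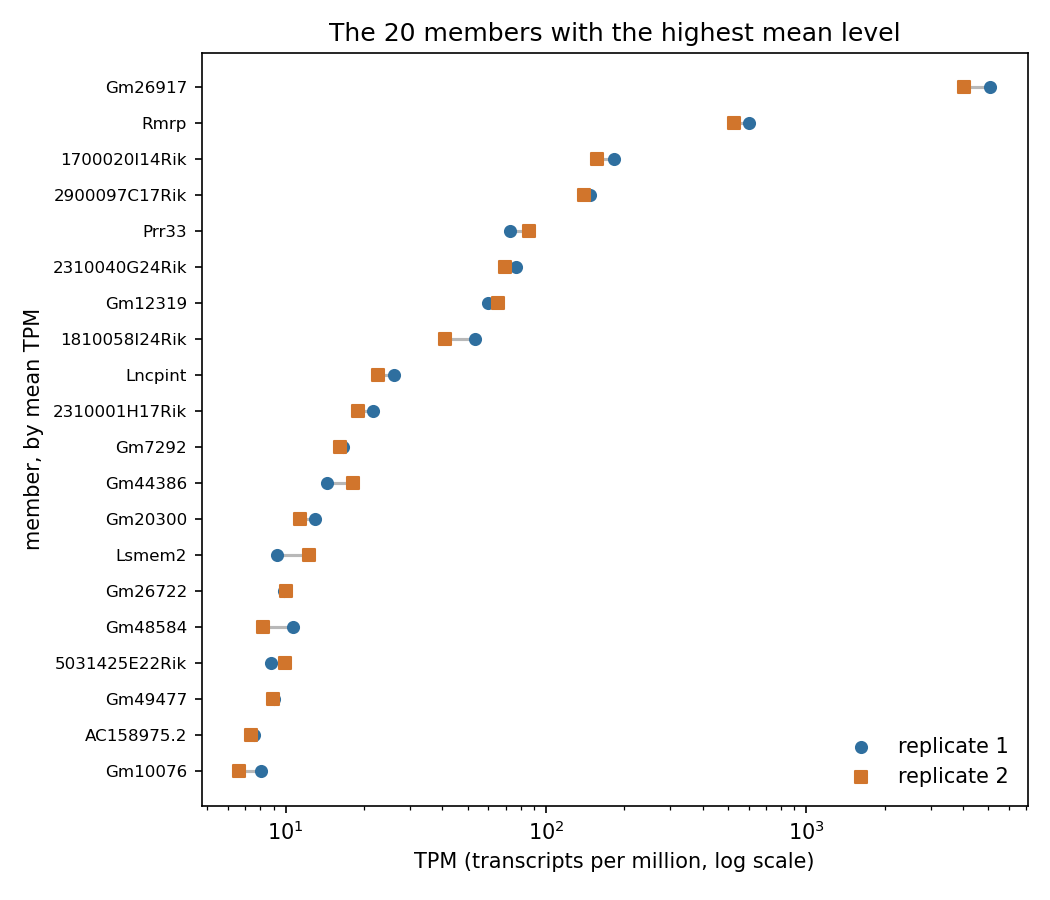
TPM (log scale) of the 20 members with the highest mean level, with 1 point per animal (circles for replicate 1, squares for replicate 2) joined by a line. Gm26917 stands at 4027 to 5071 TPM, 4 members lie at 100 TPM or more, and the gap between the animals is small beside the range over genes.

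Gm26917 was the most abundant member. It is a gene of 2 exons on chromosome 17 that resembles ribosomal RNA, and RefSeq gave no matching entry. Its level was 5071 TPM in replicate 1 and 4027 TPM in replicate 2, from 340662 and 303343 counts. It was the only member of the 4-gene ribosomal-RNA-like list; CT010467.1 from that list had 301 and 70.2 counts. Ribosomal RNA was reduced in both libraries, and the part of what remained in the level of Gm26917 was not tested.

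Rmrp followed at 602 TPM in replicate 1 and 526 TPM in replicate 2. The ribozyme-class entry, which lies inside it, stood at 643 and 708 TPM. Only 3.98% of the 31-base words of the longer entry are found in no other gene, so the division of reads between both entries rests on the few end bases shown above. Summed, the entries came to 1245 TPM in replicate 1 and 1234 TPM in replicate 2. In counts, they summed to 5514 and 6171. The second quantification listed 3428 and 4115 counts on the longer entry and 0 on the ribozyme entry, and its mean level of the longer entry was 1481 TPM, against 564 TPM in the first.

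Among the RNAs with a described function, Cyrano stood at 182 TPM in replicate 1 and 157 TPM in replicate 2, and Norad at 148 and 141 TPM. They came next after Gm26917 and Rmrp, and both animals placed Cyrano above Norad. For comparison, Malat1, a nuclear RNA set aside by name, stood at 605 and 575 TPM. The Norad copy Gm7292 was listed at 16.7 and 16.2 TPM. Since 85.9% of the words of Gm7292 also occur in Norad, its level depends on the few differing bases and is uncertain; the pair summed to 164 and 157 TPM.

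Lncpint, described as an RNA induced by p53 and on the list of microRNA hosts, stood at 26.1 TPM in replicate 1 and 22.7 TPM in replicate 2. Jpx, an RNA of the X inactivation centre known as an activator of Xist, stood at 2.09 and 1.98 TPM in these males. Its opposite-strand neighbour Ftx was listed at 38.9 and 38.2 counts, below the limit, and Xist at 16 and 3 counts. The list of described noncoding RNAs drawn up for this work held 30 symbols, some of them other names of the same RNA. Of these symbols, 24 had an entry, 14 were of the lincRNA class and 3 were members: Cyrano, Norad and Lncpint. Norad, Cyrano, Oip5os1 and Pint were without an entry only because the same genes are listed under another symbol. Carmn, an RNA of the smooth-muscle lineage, missed the limit by 1 count in replicate 1 (49 and 89 counts). Gm28653, from the microRNA-host list, had 153 counts in replicate 1 and 21 in replicate 2. Lncpint is a host by that list only, since no annotated microRNA gene overlaps its span. The 2 members found to be hosts by the position of annotated hairpins were near the bottom of the range. 6720427I07Rik stood at 0.75 and 0.68 TPM, and Gm49794, which holds Mir7217 and Mir7218, at 0.36 and 0.46 TPM. The hairpins themselves held 0 counts, in libraries that were not made for small RNAs.

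Several members have a RefSeq entry that is not a noncoding RNA. Of the 79, 40 matched a RefSeq lncRNA, 7 a protein-coding gene, 1 a pseudogene, 1 a transcribed pseudogene and 1 the RNase MRP RNA, and 29 matched none. The most abundant of the coding matches was 1810058I24Rik, which codes for a small mitochondrial protein (Stmp1), at 53.2 TPM in replicate 1 and 41.1 TPM in replicate 2. Lsmem2, a gene for a membrane protein of muscle, stood at 9.30 and 12.2 TPM on 63 and 94 counts. It was matched to the coding gene by symbol, and its 369-base entry holds no reading frame from a start codon to a stop codon. The others were Tmem250-ps at 5.65 and 5.46 TPM, Gm46430 at 3.61 and 2.67 TPM, Gm37494 at 2.58 and 3.34 TPM, Gm5165 at 2.36 and 1.94 TPM, and D930016D06Rik (RefSeq Thoc2l) at 1.06 and 0.95 TPM. A 430-base transcript of Gm37494 gave 1.41 and 1.87 TPM on only 11.7 and 17.6 counts. Its 16021-base transcript held 470 and 466 counts, at 1.17 and 1.02 TPM. D930016D06Rik was matched by an older name, and the longest reading frame of its entry is 58 codons. The pseudogene match was Gm10076, at 8.04 and 6.63 TPM, and 82.2% of its words also occur in Rpl41, which codes for a protein of the large ribosomal subunit.

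Every member except Lsmem2 has an annotated transcript with a reading frame from a start codon to a stop codon in the transcript's direction. The longest frame reached 100 codons in 27 members, or 34.2%, and in 16.1% of all 5844 genes of the class; members also have more exon bases, with a median of 2881 against 1035. The longest frames were 918 codons in Gm37494, 667 in Gm5165, 587 in AC132253.9 and 410 in BC002059. Prr33, named for a proline-rich protein and listed by RefSeq as lncRNA, had a frame of 260 codons and was among the most abundant members, at 72.9 TPM in replicate 1 and 86.2 TPM in replicate 2. Frames are a property of the annotation, and no protein was measured.

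Of the remaining abundant members, 2310040G24Rik stood at 77.0 TPM in replicate 1 and 69.9 TPM in replicate 2 and Gm12319 at 59.6 and 65.6 TPM. 2310001H17Rik stood at 21.6 and 18.9 TPM, Gm44386 at 14.5 and 18.2 TPM, and Gm20300 at 13.0 and 11.4 TPM. Neighbours in this order were not always apart: the values of 2310040G24Rik (69.9 and 77.0 TPM) and Prr33 (72.9 and 86.2 TPM) overlap. The lower Cyrano value, 157 TPM, lies above the higher Norad value, 148 TPM. It lies below the 164 TPM of Norad and its copy Gm7292 summed in replicate 1. The longest transcripts alone stood at 143 TPM in replicate 1 and 121 TPM in replicate 2 for Cyrano, and at 139 and 126 TPM for Norad. From Gm20300 at rank 13 down to Gm10076 at rank 20, means lay between 12.2 and 7.33 TPM. These ranks rest on very different depths, a mean of 1088 counts for Gm20300 and 55.6 for Gm10076. Gm49477, between them, stood at 9.06 and 8.94 TPM. The lowest levels belonged to long transcripts: Gm20342, with 9720 exon bases, stood at 0.29 and 0.19 TPM, although 70 and 52 counts carried it past the limit.

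In structure, members were simple genes. The median member had 2 transcripts, 2 exons and 2881 exon bases, and 16 of 79 (20.3%) had a single exon. Over all genes of the class the medians were 1 transcript, 3 exons and 1035 exon bases, and 5.42% had a single exon. Among 10135 protein-coding genes that passed the same count limit, the medians were 5 transcripts, 10 exons and 4793 exon bases, and 1.84% had a single exon. A count limit favours long transcripts, so exon length is not independent of the way members were chosen. Members lay on 20 chromosomes.

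For the 42 members with 2 or more transcripts, the transcript with the highest TPM was the same in both animals for 33. Cyrano's 8300-base transcript made up 78.7% of its TPM in replicate 1 and 77.1% in replicate 2. Norad's full-length transcript made up 94.3% and 89.6%, with the rest on a 339-base entry that received 0 counts in the second quantification. For 1810058I24Rik, the 690-base transcript made up 91.6% and 92.5%. Lncpint was spread over 16 transcripts, none above 16.5% in either animal, and its leading one differed between the animals and between the quantifications. For Jpx, with 11 transcripts and at most 76 counts, the leading transcript held 34.5% in replicate 1 and 6.60% in replicate 2. 1300002E11Rik showed the widest gap: its leading transcript in replicate 1 held 40.9% there and 0% in replicate 2, on 71.0 and 81.6 gene counts. Both of these genes had under 100 counts in each animal, and no difference between the animals is read from their transcripts. 4632404H12Rik also changed its leading transcript, from a share of 52.4% in replicate 1 to 44.0% in replicate 2, while Gm43597 kept the same one at 72.8% and 55.5% and changed it only in the second quantification of replicate 2.

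Reads of most members needed no division between genes. The deposited counts, given to 2 decimals, were whole numbers in both libraries for 65 of 79 members, as they are where no read is divided between entries. For 59 members, 95% or more of the 31-base words occur in no transcript of another gene, read in transcript direction, and 58 of those had whole counts. For 7 members fewer than 25% of the words were unique, and none of those had whole counts: Gm49749 at 0%, Rmrp at 3.98%, AC158975.2 at 9.76%, Gm7292 at 14.1%, Gm10076 at 15.8%, AC132253.9 at 16.7% and AC166110.4 at 20.1%. Gm49749 lies wholly inside exon sequence of the coding gene Pcnx on the same strand, AC166110.4 shares 71.8% of its words with Sod2, the mitochondrial superoxide dismutase, and AC132253.9 shares 67.4% with Gm47547. Norad, the partner of Gm7292, kept 55.3% unique words.

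The second quantification, which matched reads to an index without full alignment, stood close to the first for most members. In mean count it was within 1.5-fold for 71 of 79, with a median log2 ratio of second over first of 0.12. It was lower by more for 5 members. Gm10076 went from 57.5 and 53.7 counts to 0 in both libraries, and Gm49749 from 66.0 and 127 counts to 0 and 52.0. Gm26722 went from 235 and 272 counts to 142 and 143, Gm48584 from 70 and 61 to 35 and 48, and Gm12319 from 386 and 481 to 262 and 309. It was higher by more for 3 members, of which Gm26853 was the most changed, from 95 and 112 counts to 203 and 207. The others were Gm46430, from 133 and 125 counts to 220 and 228, and 9430037G07Rik, from 150 and 191 to 232 and 297. Of the 6 members with under 450 exon bases, 5 had lower counts in the second quantification. Except for Gm10076, at 0, their TPM did not fall in the same way. Gm12319 averaged 62.6 TPM in the first quantification and 66.7 TPM in the second. Gm48584 went from 10.65 TPM in replicate 1 and 8.19 TPM in replicate 2 to 8.69 and 10.06 TPM. Lsmem2 went from 9.30 and 12.25 TPM to 9.43 and 12.93 TPM, and Gm44386 from 14.48 and 18.22 TPM to 18.12 and 18.26 TPM.

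**Figure D3:**
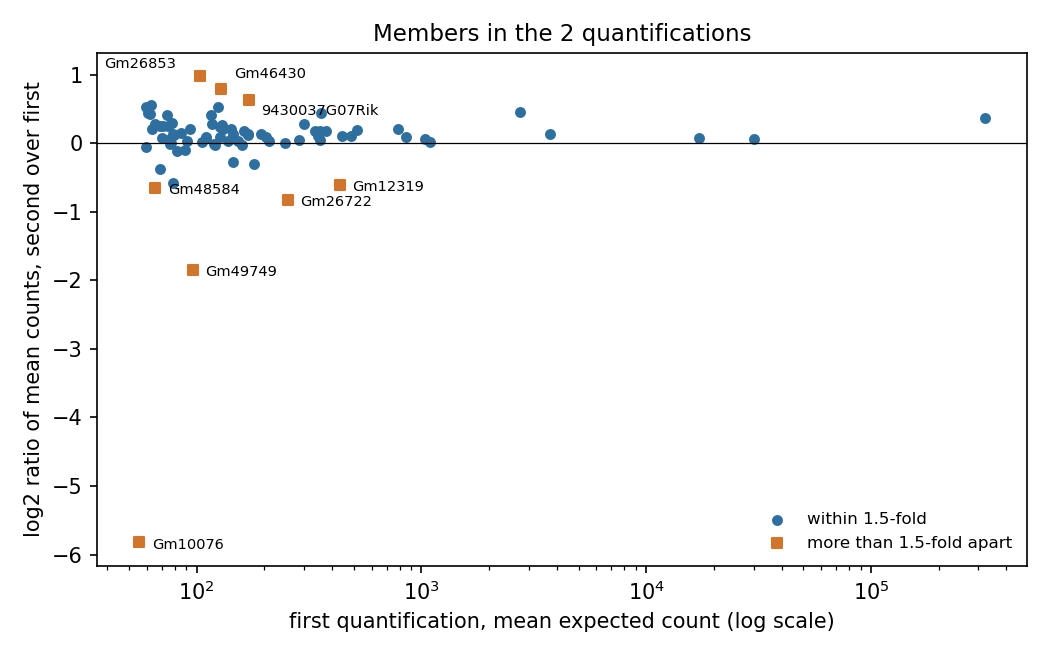
Log2 ratio of the mean count in the second over the first quantification against the mean expected count of the first (log scale), 1 point per member. Squares mark the 8 members more than 1.5-fold apart; all of them lie below 500 counts, and Gm10076 at the bottom had 0 counts in the second quantification.

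Many members lie close to a protein-coding gene. Of the 79, 48 (60.8%) lay within 10 kb of one and 29 (36.7%) within 1 kb or overlapped its span, against 27.4% and 14.2% of all 5844 genes of the class. Head-to-head pairs, in which both genes start near each other and point apart, accounted for 12 members (15.2%) within 1 kb and for 3.85% of the class. These shares describe annotated positions and were not tested. The class is not matched to the members in counts, since 82.4% of it was at 0 counts in both libraries.

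**Figure D4:**
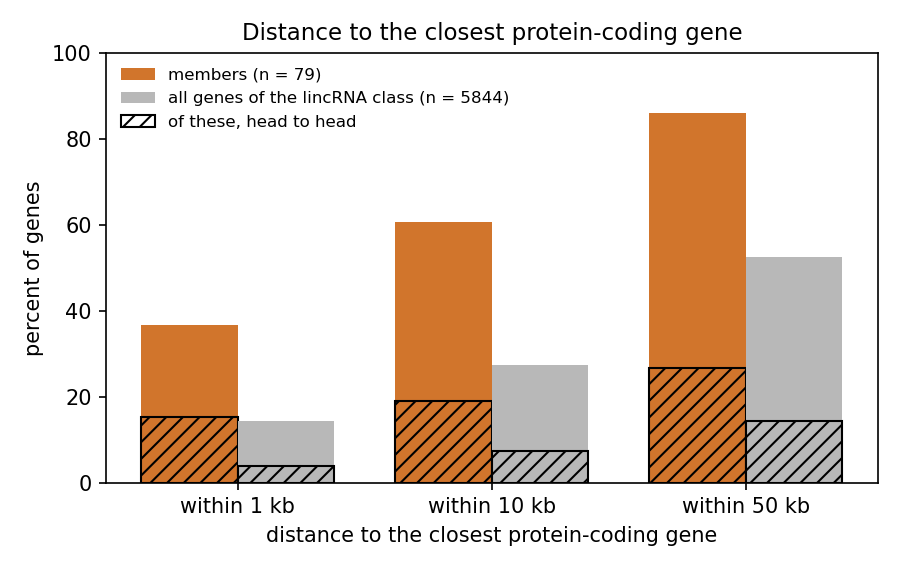
Percent of genes whose closest protein-coding gene lies within 1, 10 or 50 kb, for the 79 members and for all 5844 genes of the lincRNA class, with the head-to-head pairs hatched. Members stand above the class at each distance: 36.7% against 14.2% within 1 kb, and 86.1% against 52.5% within 50 kb. Members were chosen by counts, while 82.4% of the class was at 0 counts in both libraries.

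Within head-to-head pairs, levels ranged from far apart to close. Gm28651 stood at 5.10 TPM in replicate 1 and 4.34 TPM in replicate 2 beside 3425401B19Rik at 156 and 184 TPM, at 355 bases. 3300002P13Rik stood at 4.04 and 5.37 TPM beside Cacng6, a calcium channel subunit, at 65.5 and 68.7 TPM. C030037D09Rik stood at 1.54 and 1.48 TPM beside Msi2, an RNA-binding protein, at 86.3 and 79.7 TPM. In other pairs the levels were near each other: 5031425E22Rik stood at 8.78 and 9.98 TPM beside Kmt2e, a chromatin regulator, at 9.87 and 12.8 TPM, and 2010320M18Rik at 5.20 and 4.74 TPM beside Pik3r2, a subunit of a lipid kinase, at 6.01 and 6.91 TPM. A430046D13Rik (6.36 and 6.80 TPM) and AI480526 (5.60 and 6.59 TPM) stood above their coding partners, Myl6b, a myosin light chain (4.03 and 3.81 TPM), and Setd1b, a histone methyltransferase (3.30 and 3.82 TPM).

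Gm12319 starts upstream of Pfn1, an actin-binding protein, on the same strand, 97 bases away, and stood at 59.6 and 65.6 TPM beside 90.03 and 103 TPM for Pfn1. Prr33 overlaps the span of Tnnt3, fast skeletal troponin T, on the opposite strand, with no shared exon base. Tnnt3 stood at 13178 TPM in replicate 1 and 14851 TPM in replicate 2. Among members that share exon bases with a coding gene on the opposite strand, Gm26722 shares 796 with Rbbp4, a histone-binding protein, and Gm10605 shares 1168 with Tpbgl. The kit keeps strand, but the strand setting of the counting is not given in the sources used here. Counts were whole for 14 of the 17 members with opposite-strand exon overlap of any kind, so no read of theirs was divided. Where a member follows a coding gene on the same strand, as Gm49602 does at 369 bases after Sp4, transcription that runs on past the coding gene cannot be told apart from a separate gene in these tables.

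RefSeq promoter windows, from 250 bases before to 50 after a start, were found for 42 members. The RefSeq start was not always the annotated start of the member. It lay 61004 bases away for 8430426J06Rik, 13068 for Gm32219, 10979 for 5430431A17Rik, 8096 for Gm37494 and 2014 for Lncpint. These windows were kept in the shares that follow. Of the 42, 20 (47.6%) were rich in CpG (GC of 50% or more and an observed over expected CpG ratio of 0.6 or more), against 34.1% of 27025 RefSeq promoters of the same length. The motifs searched on both strands were CAGCTG, bound by myogenic factors among others, in 9.52% of member promoters and 16.1% of all, TATAAA in 9.52% and 14.2%, and the MEF2 motif in 9.52% and 3.26%. That MEF2 share is 4 promoters, those of Lsmem2, 2310001H17Rik, Gm4544 and Gm5532. A match is a stretch of letters, and binding was not measured.

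Between the 2 animals, 74 of 79 members (93.7%) were within 1.5-fold, as were 95.9% of all 10707 genes with 50 or more counts in both libraries. The median absolute log2 ratio was 0.19 for members and 0.12 for those genes. No member was 2-fold apart among the 51 with a mean of 100 or more counts, where 0.925% of all 9515 genes of that depth were. The members had to reach 50 counts in each library, which leaves out genes far apart such as Gm28653, so nothing is read from the absence of 2-fold members. By an exact two-sided conditional binomial test on counts, with Benjamini-Hochberg adjustment over 14095 genes, 12 members were higher in replicate 1 and 2 were higher in replicate 2. The same calls were made for 10.8% of all genes tested toward replicate 1 and for 10.7% toward replicate 2. The split of members depends on the scaling: scaling by total gene counts gave 6 toward replicate 1 and 13 toward replicate 2, where 5.2% and 25.7% of all genes tested were called. Scaling by spike-in counts gave 19 and 1 members, where 31% and 4.59% of all genes were called. The members' median log2 ratio of replicate 2 over replicate 1 was -0.06, beside 0.00 over all genes tested. The test compares these libraries and their counting error, so a call says nothing of the spread among animals. With an assumed coefficient of variation of 0.1 between animals (edgeR), 0 members were called, with 4 at an unadjusted p under 0.05 by that tool and 25 by the binomial test. Shares of all genes at that unadjusted limit were not worked out, so nothing is read from the 4 and the 25.

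**Figure D5:**
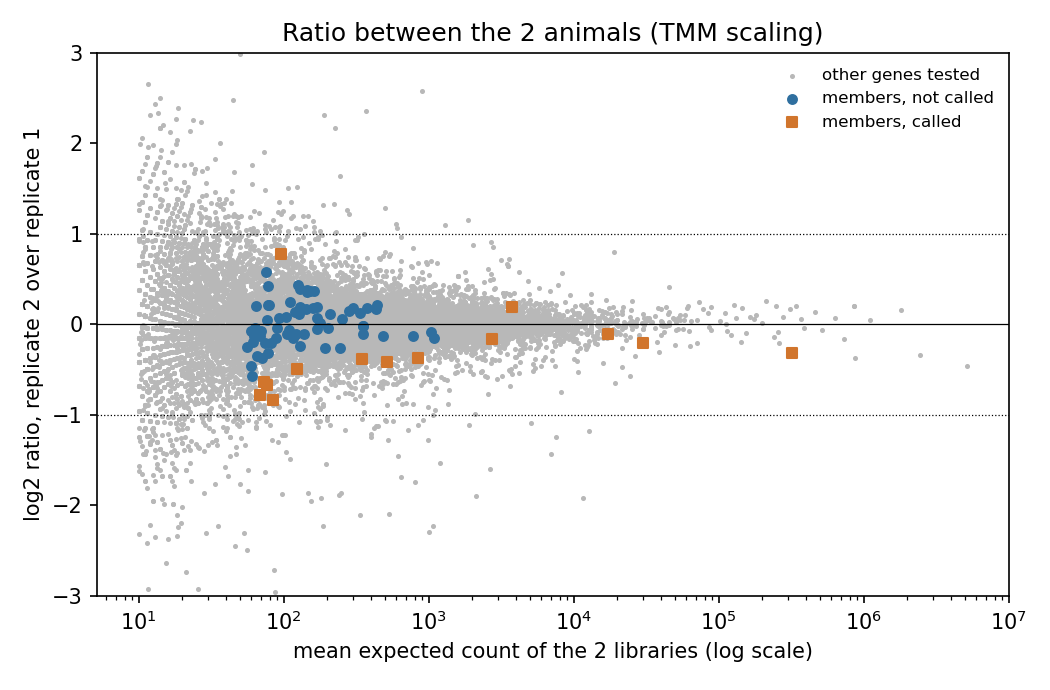
Log2 ratio of replicate 2 over replicate 1 against the mean expected count (log scale) for all 14095 genes tested in grey, members not called (circles) and members called (squares); dotted lines mark 2-fold, and 50 other genes lie outside the range drawn. All members lie between -0.83 and 0.78, inside the dotted lines.

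The deepest members gave calls at small ratios. Cyrano had 30880 counts in replicate 1 and 29716 in replicate 2, a log2 ratio of -0.21 after scaling (adjusted p = 8.51e-67, exact binomial test). Norad had 16930 and 17400 counts and a log2 ratio of -0.11 (adjusted p = 3.63e-11, exact binomial test). Taken with Gm7292 its ratio stayed at -0.11, and scaled by total gene counts it was 0.00. Gm26917 was at -0.32. Prr33 was higher in replicate 2, with 3298 counts in replicate 1 and 4188 in replicate 2 and a log2 ratio of 0.19 (adjusted p = 1.51e-07, exact binomial test); Tnnt3, on the opposite strand, was at 0.20. Scaled by spike-in counts, Prr33 was at 0.04 and its call was lost (adjusted p = 0.317, exact binomial test).

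Rmrp was called lower in replicate 2, with 2746 and 2717 counts and a log2 ratio of -0.17 (adjusted p = 0.000266, exact binomial test). The call was not kept when the reads shared with the ribozyme entry were added. That entry was at 0.17, both entries summed were at 0.01 (unadjusted p = 0.657, exact binomial test), and the second quantification put Rmrp at 0.11, a call in the opposite direction (adjusted p = 0.0091, exact binomial test). Scaled by total gene counts, the lincRNA-class entry was at -0.05 and not called (adjusted p = 0.33, exact binomial test). The sum was tried after seeing the data.

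At moderate depth, 1810058I24Rik had 915 and 784 counts (log2 ratio -0.37, adjusted p = 1.84e-06, exact binomial test) and Lncpint 565 and 470 (log2 ratio -0.42, adjusted p = 5.61e-05, exact binomial test). 2310001H17Rik had 373 and 318 counts, a log2 ratio of -0.38. The largest ratios were at low counts. Gm5532 had 105 and 65 counts (log2 ratio -0.83), Gm13387 84 and 54 (-0.78), 9330102E08Rik 91 and 63 (-0.67), 3222401L13Rik 86 and 61 (-0.64) and AC132253.9 139 and 109 (-0.50). Some of these calls were lost under other settings. In the second quantification, AC132253.9 was at -0.21 (adjusted p = 0.37) and 3222401L13Rik at -0.49 (adjusted p = 0.0768) in the exact binomial test. Neither was called without a filter on low counts, with adjusted p of 0.0554 and 0.0589 in the same exact test. Scaled by total gene counts, adjusted p in the exact test was 0.0973 for AC132253.9, 0.088 for 3222401L13Rik, 0.0596 for 9330102E08Rik and 0.0526 for 2310001H17Rik. Gm49749, the gene inside Pcnx, had 66.0 and 127 counts (log2 ratio 0.78), while Pcnx itself was at -0.15. In the second quantification Gm49749 had 0 and 52.0 counts (adjusted p = 1.59e-13, exact binomial test), and no fold is given against a count of 0. Marker lists of cell types also differed between the libraries. The 6 slow-fibre genes were lower in replicate 2, by 0.51 to 0.77 on the log2 scale. The 5 pericyte and smooth-muscle genes had log2 ratios from 0.21 to 1.09, all toward replicate 2, the 5 adipocyte genes from -0.01 to 1.14, and the 5 endothelial genes from 0.12 to 0.34. None was at 0 counts, their summed levels were 98.0 and 130 TPM, 21.9 and 30.9 TPM, and 32.6 and 37.6 TPM in replicates 1 and 2, and the part of any of these lists in the calls was not tested.

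Members that leaned toward replicate 2 at a mean of 100 or more counts did not pass the test in the first quantification, except Prr33. 3300002P13Rik had 101 and 152 counts (log2 ratio 0.44), Gm15675 106 and 155 (0.39), Gm49794 118 and 171 (0.38), 5930430L01Rik 134 and 192 (0.36), AC122818.4 125 and 179 (0.36) and Gm44386 120 and 171 (0.36). In the second quantification, the exact binomial test called 3300002P13Rik (adjusted p = 0.0429), Gm15675 (adjusted p = 0.023) and 5930430L01Rik (adjusted p = 0.021) toward replicate 2. Gm49794, AC122818.4 and Gm44386 were not called there. On the other side, Lppos, on the strand opposite Lpp, a protein of cell adhesion sites, had 256 and 236 counts (-0.27), and Gm17354, opposite Cc2d1b, had 200 and 185 (-0.26). Gm17281, opposite Pacsin3, a membrane-shaping protein of muscle, had 349 and 361 counts (-0.10). Of the deeply counted members with low TPM, Gm37494 had 482 and 490 counts (-0.13) and Gm5113, head to head with Zfp146, had 333 and 420 (0.18).

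The count limit has no natural gap. Just inside it, by the smaller of their 2 counts, were Gm20342 (70 and 52 counts), Gm32219 (66 and 53), Gm10076 (57.5 and 53.7), Gm13387 (84 and 54) and 8430426J06Rik (57 and 73). Just outside it were Carmn (49 and 89), 4930480K23Rik (47 and 48), A330094K24Rik (47 and 82), Gm32200 (47 and 56) and 4632428C04Rik (46 and 55). A further 6 genes of the class passed in replicate 1 only and 12 in replicate 2 only. Of the 5844 genes, 4816 (82.4%) were at 0 counts in both libraries, and a count of 0 allows up to 3 counts, or 0.0815 and 0.0795 CPM in replicates 1 and 2. That limit covers counting error only.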

How the data were processed

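Total RNA-seq tables of 2 libraries, 1 per animal, were used. Per the deposited README, reads were matched to mm10 with GENCODE M21. The authors' deposited gene table and first transcript table hold expected counts, TPM and the percent of each transcript in its gene. Their column names are those RSEM writes, per the file headers. The second transcript table, deposited by the authors, holds estimated counts and TPM under the column names kallisto writes. Tool versions and strand setting are not given in the sources used here. One parental genome of these hybrids, CAST, differs from mm10.

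The members and gene lists were chosen with earlier results of these data known. Counts were rounded for tests, scaled by TMM (edgeR 4.0.16, R 4.3.3), with a prior of 1 count in ratios. An exact conditional binomial test (scipy 1.17.1) was run on genes averaging at least 10 counts, with calls at an adjusted 0.05. It was tried on simulated counts with known folds and counting error only. That setting holds no variation between animals, so it cannot show how the test behaves between animals. The README files' other content and 26248 entries with numeric identifiers, at 0 counts, were left out. Words of 31 bases, reading frames and neighbours came from GENCODE M21. RefSeq entries were matched by identifier, by symbol or by an older name. The alternatives tried include total counts, size factors from DESeq2 1.42.0, spike-in counts, an assumed variation of 0.1, other count minimums, other priors and the second quantification.

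The text names the 20 members highest in TPM, the 5 next in counts, up to 8 in each direction by ratio, role-list members, up to 5 in each direction by difference between quantifications, those next to the count limit, and up to 6 with a changing leading transcript. 2010320M18Rik, 3222401L13Rik, 9330102E08Rik, AC166110.4, AI480526, C030037D09Rik, D930016D06Rik, Gm28651, Gm4544, Gm49602, Gm5165 and Gm5532 are named outside that rule, picked once their values were known.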

Additional observations from a re-analysis of the deposited data

How the results depend on the processing

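The median level of the members, 3.61 TPM, was 3.09 TPM in the second quantification and 8.01 TPM when TPM was rescaled over nuclear protein-coding and lincRNA genes. Without replicate 1 it was 3.47 TPM and without replicate 2 it was 3.75 TPM. The limit of 50 counts set the number of members: 131 genes reached 25 counts in both libraries and 49 reached 100, while the second quantification took 103, of which 74 were members. Within 1 kb rather than 10 kb of a coding gene lay 29 members. Of the members averaging at least 100 counts, none was 2-fold apart under any of the 6 alternatives tried for that count. Gm49749, below that mean, had 0 and 52.0 counts in the second quantification. In that quantification, the leading transcript was the same in both animals for 32 members. That number includes Gm10076, which had 0 counts there and so no leading transcript.

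Calls between the animals depended on the scaling. Total gene counts shifted the median log2 ratio of all genes tested to 0.12 and gave 6 members higher in replicate 1 and 13 higher in replicate 2. Spike-in counts shifted it to -0.14 and gave 19 and 1. The second quantification called 11 and 6. The share of all genes it called was not worked out, so nothing about the members is read from these numbers. With an assumed variation of 0.1 (edgeR), 0 members were called in either direction, so 0 in all, with 4 at an unadjusted p under 0.05 by that tool. For this setting too, the share of all genes was not worked out. 2900097C17Rik turned to 0.002 on the log2 scale with total gene counts. Rmrp turned to 0.107 in the second quantification and to 0.012 with both entries summed, an alternative chosen after seeing the data, as was summing 2900097C17Rik with Gm7292. No paired analysis was possible because there was 1 group of 2 animals. At 50 to 100 counts, counting error limits what can be seen.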
